A study of Homo sapiens with 18 samples.

Results

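The 10 genes described here are TMPRSS2, SLC45A3, FKBP5, NDRG1, CHRNA2, TRPM8, PGC, CCDC141, PMEPA1 and ELL2, classical androgen-induced genes of luminal prostate epithelium outside the kallikrein family. They were chosen by name from the 58037 genes of the count table, and their rise with androgen in these libraries was among the values that chose them. RNA was sequenced from LNCaP, an established line of prostate cancer that depends on androgen. All cells were grown with 9% charcoal-stripped serum, from which steroids are depleted, and transfected with a pool of siRNAs. The 6 groups, of 3 biological replicates each, were E2F1 siRNA with R1881, E2F1 siRNA with vehicle, E2F2 siRNA with R1881, E2F2 siRNA with vehicle, control (non-targeting) siRNA with R1881 and control siRNA with vehicle. R1881 is a synthetic androgen, given at 0.1 nM for 48 h, and the vehicle was ethanol. Treatment began 48 h after transfection by the treatment protocol and 42 h after it by the design text. The labels do not say what sets the replicates of a group apart.

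Steroid hormones enter the cell, bind a nuclear receptor and release it from a chaperone complex built on heat shock protein 90. The receptor then binds DNA at paired half-sites, mostly in distal enhancers, and raises transcription of genes such as these, several of which are used as readouts of androgen action in prostate cancer. E2F1 and E2F2 are transcription factors of the cell cycle that are held in check by the retinoblastoma protein. The comparisons ask how the level of each gene without added hormone, and its induction by hormone, differ when either factor is depleted.

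The 18 libraries held 10930204 to 14819879 gene counts, and all 10 genes passed the filter on low counts that left 15185 genes for testing. E2F1 stood at 9.69 ± 0.876 CPM (TMM-scaled counts over library size) with E2F1 siRNA and R1881 and 6.83 ± 1.69 with E2F1 siRNA and vehicle, at 24.1 ± 2.29 and 12.6 ± 2.25 with E2F2 siRNA, and at 74.4 ± 6.32 and 37.3 ± 5.00 with control siRNA (SD, n = 3). E2F2 stood at 1.45 ± 0.274 and 1.87 ± 0.543 CPM with E2F1 siRNA, at 0.195 ± 0.192 and 0.121 ± 0.142 with E2F2 siRNA, and at 3.43 ± 1.12 and 2.29 ± 0.877 with control siRNA, in the same order of treatments. The E2F2 pool therefore lowered E2F1 as well, by 1.62 on the log2 scale with R1881 and 1.57 with vehicle (adjusted p = 1.69e-06 and 3.72e-06). All 10 luminal markers were present in every library, while KRT5 and TP63 (basal cells), COL1A2 (fibroblasts) and PTPRC (leukocytes) were at 0 in 17 of 18 libraries and CHGA (neuroendocrine cells) was at 0 in all 18. Of the other 5 markers of other cell types, COL1A1 (median 16.2 CPM), VIM (9.06) and SYP (2.17) were present in every library, KRT14 was at 0 in 3 and PECAM1 was at 0 in 12. Of the 10 luminal markers, 4 were higher with E2F1 siRNA and R1881 than with control and none lower, and 1 was higher and 1 lower with E2F2 siRNA and R1881. With vehicle, 4 were higher and 1 lower with E2F1 siRNA, and none was higher and 5 lower with E2F2 siRNA (median log2 difference -0.19). Of all tested genes, 4.42% were called higher and 4.92% lower with E2F1 siRNA and R1881, and 15.9% and 14.4% with E2F2 siRNA and R1881. The shares with vehicle were 2.36% and 2.92% with E2F1 siRNA, and 14.2% and 13.1% with E2F2 siRNA. The part of these markers in the results was not tested. In every group replicate 3 stood apart. Its chi-square per degree of freedom against replicate 1 or 2 ran from 7.43 to 87.9 across genes, while replicates 1 and 2 differed by 1.75 to 4.21.

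RefSeq promoter windows (GRCh38.p14, 250 bases before to 50 after a start) were found for 6 of the 10 genes, 15 windows in all. The 3 windows below belong to the genes with the largest R1881 response among those 6, which were low with vehicle, and are written 5′ to 3′ on the strand of the gene. Capitals mark TATAAA, the letters of a TATA box, a motif chosen after the sequences were seen.
CCDC141 (chr2:179050088-179050387, minus strand): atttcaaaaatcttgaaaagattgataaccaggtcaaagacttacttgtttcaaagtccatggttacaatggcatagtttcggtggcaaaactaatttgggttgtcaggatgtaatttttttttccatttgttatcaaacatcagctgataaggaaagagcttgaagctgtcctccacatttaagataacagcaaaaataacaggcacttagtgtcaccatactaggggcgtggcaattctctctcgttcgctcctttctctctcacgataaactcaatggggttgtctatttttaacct
PGC (chr6:41747348-41747647, minus strand): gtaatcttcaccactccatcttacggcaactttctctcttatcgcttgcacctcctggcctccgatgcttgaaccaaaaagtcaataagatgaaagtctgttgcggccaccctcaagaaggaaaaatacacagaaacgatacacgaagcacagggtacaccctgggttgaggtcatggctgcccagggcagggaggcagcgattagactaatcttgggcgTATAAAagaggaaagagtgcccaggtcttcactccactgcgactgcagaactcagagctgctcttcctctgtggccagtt
TRPM8 (chr2:233917123-233917422, plus strand): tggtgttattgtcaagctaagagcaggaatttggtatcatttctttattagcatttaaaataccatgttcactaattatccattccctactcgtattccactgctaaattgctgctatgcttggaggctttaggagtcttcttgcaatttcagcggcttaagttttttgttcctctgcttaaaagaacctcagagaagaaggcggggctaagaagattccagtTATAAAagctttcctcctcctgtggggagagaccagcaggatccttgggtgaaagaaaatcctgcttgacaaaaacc
TATAAA began at position -30 from the start in PGC and at -27 in TRPM8, and was absent from the CCDC141 window and from the other 12 windows. The RefSeq start of PGC lies inside the span that GENCODE gives the gene. On either strand it was present in 11.5% of the 35116 promoter windows of the table. The steroid receptor half-site AGAACA, searched on both strands, was in 4 of the 15 windows and in 3 of the 6 genes (FKBP5, TRPM8 at an internal start, and PMEPA1), against 14.8% of all windows. The full pair of half-sites (AGAACA, any 3 bases, TGTTCT) was in none of the 15 and in 0.00285% of all windows. The E2F core TTTNNCGC, also searched on both strands, was in 1 of the 15 windows, at an internal TRPM8 start, against 6.89% of all windows.

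On GRCh38 the proteases TMPRSS2 and PGC lie on chromosome 21 (41464551 to 41531116) and chromosome 6 (41736711 to 41754109). The membrane proteins SLC45A3, TRPM8 and CHRNA2 lie on chromosome 1 (205657851 to 205680459), chromosome 2 (233917398 to 234019522) and chromosome 8 (27459761 to 27479883). FKBP5, PMEPA1 and NDRG1 lie on chromosome 6 (35573585 to 35728583), chromosome 20 (57648392 to 57711536) and chromosome 8 (133237171 to 133302022), ELL2 on chromosome 5 (95885098 to 95962071) and CCDC141 on chromosome 2 (178829757 to 179050086). TRPM8 is on the plus strand and the other 9 genes are on the minus strand. Counts cover the exons of each gene.

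R1881 was accompanied by higher levels of all 10 genes with each siRNA pool, and in each gene every R1881 library exceeded every vehicle library of its pool. This contrast chose the genes, so its values are a description. By the test across all genes, 10.1% of genes were called higher with R1881 under E2F1 siRNA, 11.8% under E2F2 siRNA and 13.8% under control siRNA, and nothing is read from the 10 of 10 called here. The genes fell into those with a working level in vehicle and those with almost none. NDRG1 and ELL2 had the smallest R1881 responses, NDRG1 at 4.24-fold with E2F1 siRNA, 3.50-fold with E2F2 siRNA and 3.13-fold with control siRNA, and ELL2 at 5.06-fold, 3.80-fold and 4.21-fold with the same pools. NDRG1 is a cytoplasmic protein tied to differentiation and stress, and ELL2 is an elongation factor of RNA polymerase II. PMEPA1, a membrane protein that restrains TGF-beta signalling, was 8.10-fold, 6.35-fold and 5.64-fold higher with R1881 with E2F1, E2F2 and control siRNA.

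The responses of TMPRSS2, a transmembrane serine protease whose promoter drives the common ERG fusion of prostate cancer, were 12.7-fold with E2F1 siRNA, 8.75-fold with E2F2 siRNA and 7.90-fold with control siRNA. SLC45A3 (prostein), a prostate-restricted membrane transporter and another fusion partner, had responses of 7.20-fold, 5.91-fold and 8.27-fold with the same pools. FKBP5, a co-chaperone of steroid receptors, had responses of 17.4-fold, 17.5-fold and 11.0-fold. TRPM8, the cold- and menthol-gated cation channel, had responses of 22.4-fold, 35.9-fold and 25.9-fold. CHRNA2, the alpha-2 subunit of neuronal nicotinic acetylcholine receptors, had responses of 54.4-fold, 54.7-fold and 57.2-fold.

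PGC and CCDC141 had the largest ratios and the fewest vehicle counts. PGC, the zymogen of an aspartic protease of stomach and prostate secretions, held 349 counts with E2F1 siRNA and R1881 over its 3 libraries, against 6 with E2F1 siRNA and vehicle, a fitted 55.5-fold difference. With E2F2 siRNA it held 181 counts with R1881, against 2 with vehicle (a ratio of 83.5, 95% interval 22.8 to 694), and with control siRNA 260, against 4 (68.1, 26.3 to 252). CCDC141, a coiled-coil protein studied in neuronal migration, held 1086 counts with E2F1 siRNA and R1881, against 3 with vehicle, a ratio of 365 (125 to 1773). It held 901, against 2, with E2F2 siRNA (415, 115 to 3436) and 872, against 4, with control siRNA (228, 88.9 to 840). These intervals cover counting error only and overlap among the pools.

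**Figure D1:**
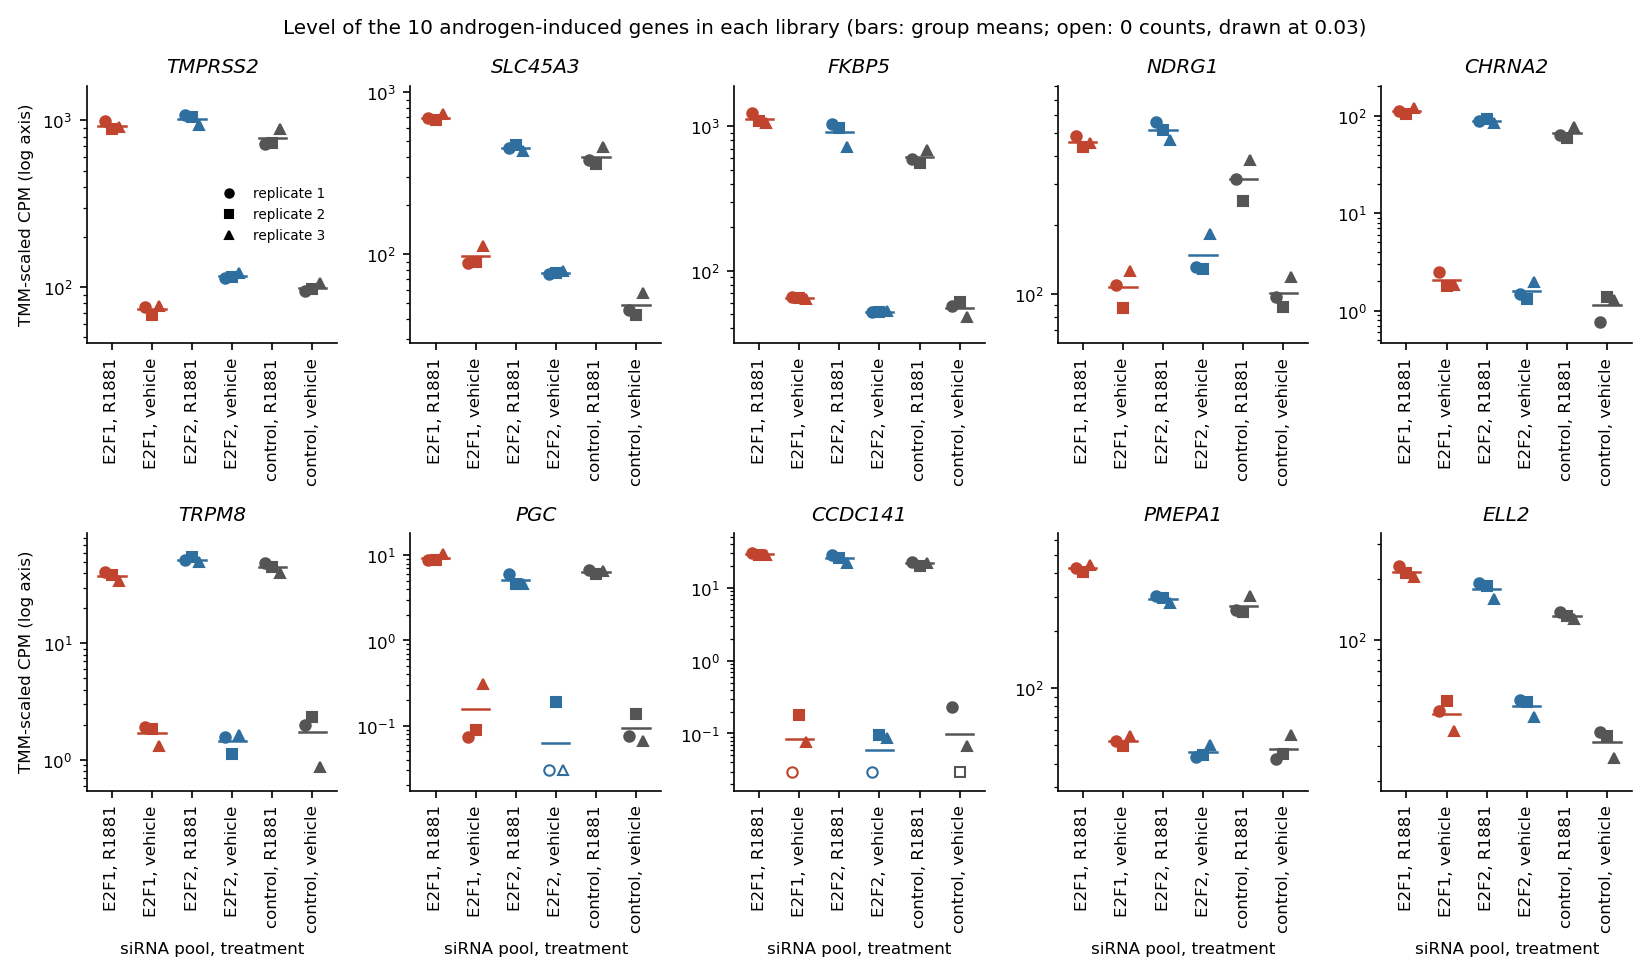
Level of each gene in each of the 18 libraries, in TMM-scaled CPM on a log axis, by siRNA pool and treatment. Points are libraries with the marker giving the replicate number, bars are group means of 3 libraries, and open points are libraries with 0 counts. In every panel the R1881 libraries of a pool lie above its vehicle libraries, and PGC and CCDC141 have vehicle libraries at 0.

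**Figure D2:**
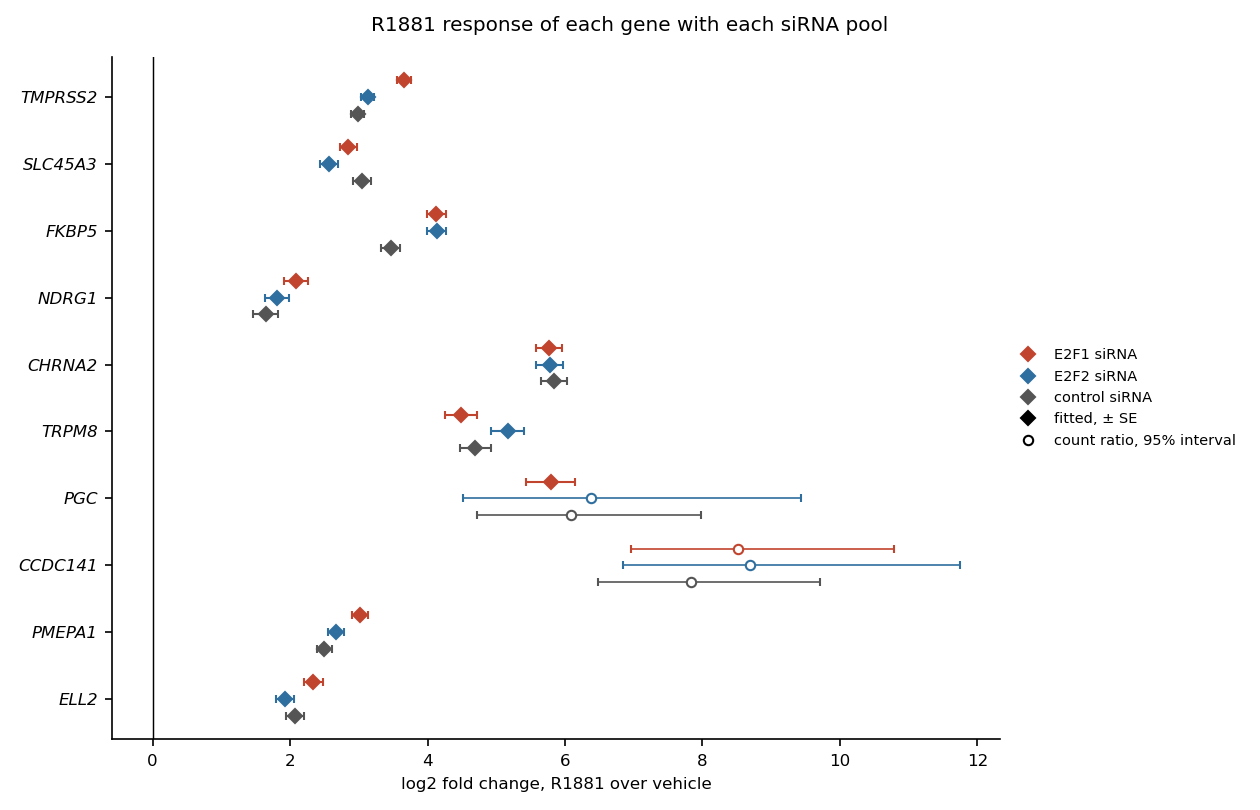
R1881 response of each gene with E2F1, E2F2 and control siRNA, as log2 fold change of R1881 over vehicle. Diamonds are fitted values ± SE (n = 3 per group), and open circles are ratios of summed counts with 95% counting intervals where the vehicle group held 2 to 4 counts. TMPRSS2 stands at 3.66, 3.13 and 2.98 with E2F1, E2F2 and control siRNA, with the E2F1 value apart from the other 2.

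Per kilobase of exon, the level with control siRNA and R1881 ran from TMPRSS2 (128 ± 15.3 CPM per kb) and SLC45A3 (108 ± 14.0) through FKBP5 (57.3 ± 6.20), PMEPA1 (48.0 ± 5.11), NDRG1 (32.4 ± 6.60), ELL2 (18.0 ± 0.678), CHRNA2 (13.1 ± 1.88), TRPM8 (5.70 ± 0.565) and PGC (3.17 ± 0.187) to CCDC141 (1.39 ± 0.0819; SD, n = 3). The first pair, and FKBP5 with PMEPA1, lay within the sum of their SDs of each other, and the other neighbours did not. With E2F1 siRNA and R1881 the leading pair stood the other way round, SLC45A3 at 189 ± 8.06 CPM per kb and TMPRSS2 at 152 ± 8.55. With E2F2 siRNA and R1881 TMPRSS2 led again at 167 ± 12.5 CPM per kb, and SLC45A3 stood at 123 ± 5.60. Exon capture can favour some exons, so this order across genes is approximate.

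With R1881, E2F1 siRNA left 5 of the 10 genes higher than control siRNA and none lower (edgeR quasi-likelihood test, adjusted p under 0.05): SLC45A3, FKBP5, CHRNA2, PMEPA1 and ELL2. Over all tested genes 4.42% were called higher and 4.92% lower. The median log2 difference of the 10 genes was 0.60, beside -0.01 over all genes. E2F2 siRNA also left 5 higher and none lower, namely TMPRSS2, FKBP5, NDRG1, CHRNA2 and ELL2, where 15.9% of all genes were called higher and 14.4% lower, and the medians were 0.31 for the 10 genes and 0.03 for all. Both comparisons use the control siRNA libraries with R1881, and the R1881 libraries of each pool also entered the choice of the genes. The comparisons are therefore not independent of each other or of that choice. In RNA from a whole culture, more cells expressing a gene and more RNA per cell cannot be told apart.

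Among the regulators of hormone and growth signalling, FKBP5 read 1241, 1093 and 1052 CPM with E2F1 siRNA and R1881, 1036, 978 and 724 with E2F2 siRNA and R1881, and 593, 553 and 681 with control siRNA and R1881 (replicates 1 to 3 throughout). Neither E2F group overlapped the control group, though replicate 3 with E2F2 siRNA came close to it. The log2 difference from control was 0.89 ± 0.12 (SE) with E2F1 siRNA (adjusted p = 2.22e-04) and 0.58 ± 0.12 with E2F2 siRNA (adjusted p = 0.00175). PMEPA1 read 428, 408 and 443 CPM with E2F1 siRNA, 302, 296 and 278 with E2F2 siRNA, and 257, 249 and 302 with control siRNA. Its E2F1 siRNA libraries stood clear of control (log2 0.66 ± 0.10, adjusted p = 6.74e-04), and its E2F2 siRNA libraries overlapped control (0.11 ± 0.10, adjusted p = 0.446). NDRG1 read 487, 435 and 453 CPM with E2F1 siRNA, 562, 519 and 468 with E2F2 siRNA, and 318, 253 and 383 with control siRNA. It was higher with E2F2 siRNA (log2 0.70 ± 0.17, adjusted p = 0.00567), and with E2F1 siRNA its groups did not overlap either but the difference missed the threshold by edgeR (0.53 ± 0.17, adjusted p = 0.0690) and passed it by DESeq2, limma-voom and the fit to the libraries compared (adjusted p 0.0327 to 0.0459).

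ELL2, the subunit of the super elongation complex, read 233, 216 and 207 CPM with E2F1 siRNA, 191, 186 and 160 with E2F2 siRNA, and 137, 132 and 128 with control siRNA, all with R1881. All E2F siRNA libraries exceeded all control libraries. The log2 differences were 0.72 ± 0.13 with E2F1 siRNA (adjusted p = 0.00192) and 0.44 ± 0.13 with E2F2 siRNA (adjusted p = 0.0174).

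Of the membrane proteins, SLC45A3 read 694, 670 and 730 CPM with E2F1 siRNA, 454, 475 and 434 with E2F2 siRNA, and 384, 360 and 459 with control siRNA. It was 1.74-fold higher with E2F1 siRNA than with control (log2 0.80 ± 0.12, adjusted p = 4.87e-04), while the E2F2 and control groups overlapped (0.18 ± 0.12, adjusted p = 0.283). CHRNA2 read 111, 104 and 121 CPM with E2F1 siRNA, 88.2, 92.7 and 83.6 with E2F2 siRNA, and 63.5, 58.6 and 77.0 with control siRNA, with no overlap between either E2F group and control. Its log2 differences were 0.75 ± 0.14 (adjusted p = 0.00264) and 0.41 ± 0.14 (adjusted p = 0.0371). TRPM8 read 41.0, 38.3 and 34.6 CPM with E2F1 siRNA, 52.5, 55.0 and 49.8 with E2F2 siRNA, and 49.4, 45.2 and 40.5 with control siRNA. Neither difference passed the test, and TRPM8 was the gene with a negative value for E2F1 siRNA (log2 -0.25 ± 0.18, adjusted p = 0.516) beside a positive value for E2F2 siRNA (0.22 ± 0.18, adjusted p = 0.398), whose libraries all lay just above those of control.

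Of the proteases, TMPRSS2 read 992, 893 and 912 CPM with E2F1 siRNA, 1079, 1051 and 935 with E2F2 siRNA, and 726, 733 and 892 with control siRNA. Replicate 3 of control siRNA lay just under the lowest library of the E2F pools. The log2 difference passed the test for E2F2 siRNA (0.38 ± 0.09, adjusted p = 0.00390) and not for E2F1 siRNA (0.25 ± 0.09, adjusted p = 0.0973). PGC read 8.86, 8.69 and 10.4 CPM with E2F1 siRNA, 6.00, 4.60 and 4.58 with E2F2 siRNA, and 6.74, 6.00 and 6.49 with control siRNA. Its values ran in opposite directions, at log2 0.54 ± 0.21 with E2F1 siRNA (adjusted p = 0.144) and -0.34 ± 0.22 with E2F2 siRNA (adjusted p = 0.27). CCDC141 read 30.3, 28.1 and 28.3 CPM with E2F1 siRNA, 28.2, 25.4 and 21.9 with E2F2 siRNA, and 22.6, 20.1 and 21.7 with control siRNA. Neither log2 difference passed in the main edgeR fit (0.43 ± 0.19, adjusted p = 0.222, and 0.23 ± 0.19, adjusted p = 0.419). The E2F1 siRNA libraries did not overlap control, and that difference passed by DESeq2 and in the fit to the libraries compared (adjusted p = 0.0261 and 0.0220).

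**Figure D3:**
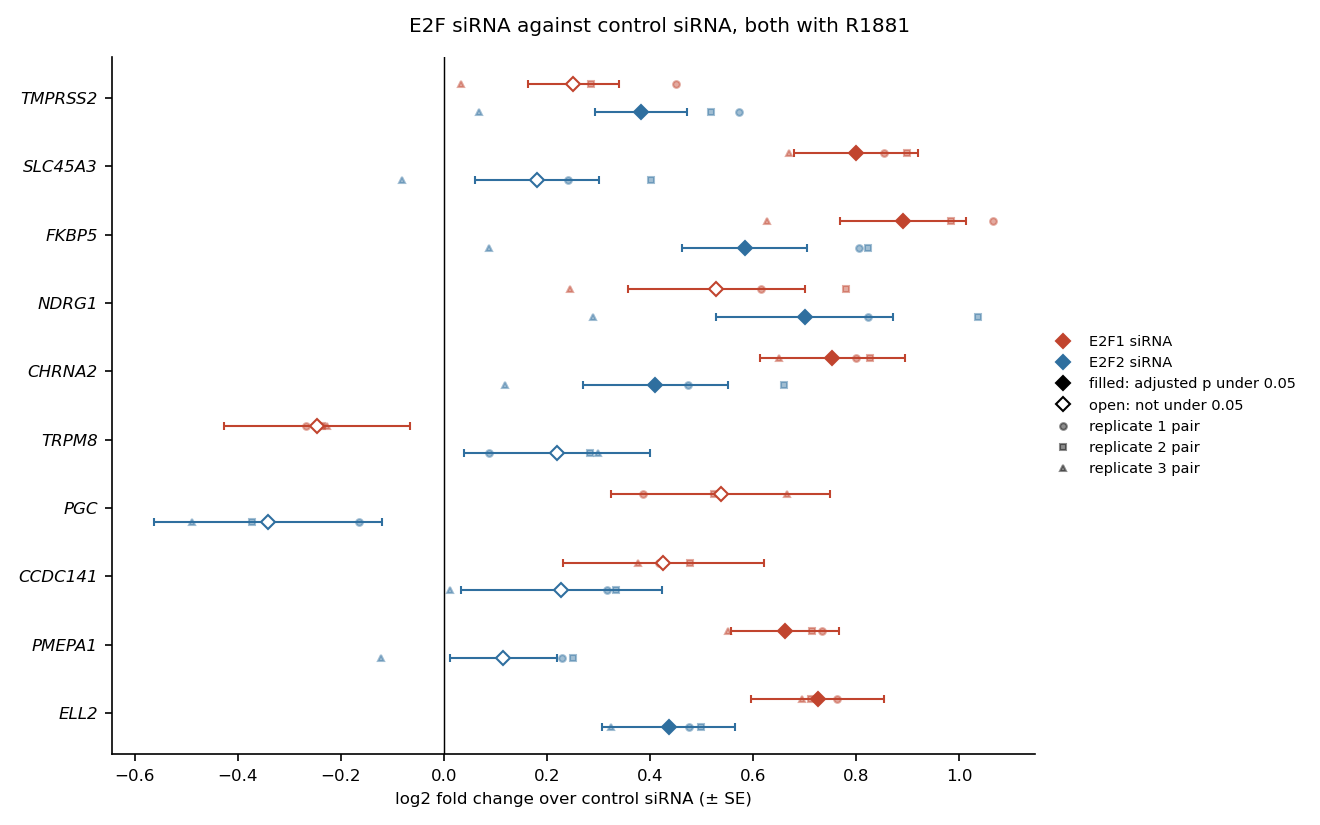
Log2 fold change of E2F1 siRNA and E2F2 siRNA over control siRNA, all with R1881, for each gene. Diamonds with bars are fitted values ± SE, filled where the adjusted p was under 0.05, and the small markers are the differences between libraries of the same replicate number. The E2F2 differences of FKBP5 stand at 0.81, 0.82 and 0.09 in replicates 1, 2 and 3.

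Replicate 3 carried the smallest E2F2 siRNA difference for TMPRSS2 (0.07, beside 0.57 and 0.52 in replicates 1 and 2), FKBP5 (0.09, beside 0.81 and 0.82), NDRG1 (0.29, beside 0.82 and 1.04), CHRNA2 (0.12, beside 0.47 and 0.66) and ELL2 (0.32, beside 0.48 and 0.50), and its part in the result was not tested. The replicate numbers were taken to pair the E2F1 siRNA and control libraries with R1881, by a cutoff on correlation in these same data (lowest r = 0.128). What the numbers mean is not stated. With the number as a block, 9 of the 10 genes were called higher with E2F1 siRNA, where 9.50% of all genes were called higher and 10.4% lower. The block added TMPRSS2 (0.25, adjusted p = 0.0316), NDRG1 (0.55, adjusted p = 0.00354), PGC (0.54, adjusted p = 0.0441) and CCDC141 (0.43, adjusted p = 0.0308). For E2F2 siRNA with R1881 the numbers fell just short of the cutoff (lowest r = 0.082). The block called the same 5 genes there as the main fit, and its share of all genes is not given. Without replicate 3 of control siRNA with R1881, TMPRSS2 and NDRG1 also passed for E2F1 siRNA (adjusted p = 0.0214 and 0.0343). For E2F2 siRNA, CHRNA2 lost its call without any one of replicates 1 and 2 of control siRNA with R1881 or any of the 3 replicates of E2F2 siRNA with R1881 (adjusted p 0.0547 to 0.166), and ELL2 lost its call without replicate 1 or 2 of E2F2 siRNA with R1881 or replicate 3 of control siRNA with R1881 (adjusted p 0.0586 to 0.0688). Both calls were also lost with no filter on low counts (adjusted p = 0.138 and 0.0650).

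With vehicle, E2F1 siRNA left SLC45A3 and CHRNA2 higher than control siRNA and TMPRSS2 lower, while 2.36% of all genes were called higher and 2.92% lower. E2F2 siRNA left SLC45A3, NDRG1 and ELL2 higher and none of the 10 lower, while 14.2% of all genes were called higher and 13.1% lower. For the 8 genes with more than 10 counts in every group, the median log2 difference was 0.18 with E2F1 siRNA and 0.35 with E2F2 siRNA, beside 0.01 and 0.02 over all genes. The control libraries with vehicle are common to both comparisons, and the vehicle libraries of each pool entered the choice of the genes. PGC (6 counts over the E2F1 siRNA libraries, 2 over E2F2 siRNA and 4 over control) and CCDC141 (3, 2 and 4) gave no detectable difference at this depth.

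TMPRSS2 and SLC45A3 moved in opposite directions with E2F1 siRNA and vehicle. TMPRSS2 read 75.5, 68.5 and 77.0 CPM with E2F1 siRNA, 113, 115 and 122 with E2F2 siRNA, and 94.2, 97.9 and 106 with control siRNA, so that the 3 groups did not overlap. The E2F1 siRNA difference from control was log2 -0.43 ± 0.09 (adjusted p = 0.0103), and the E2F2 siRNA difference was 0.23 ± 0.09 (adjusted p = 0.0657, and 0.0290 with the replicate block, where the numbers were taken to pair the libraries). SLC45A3 read 87.9, 89.9 and 113 CPM with E2F1 siRNA, 75.5, 76.3 and 78.7 with E2F2 siRNA, and 45.5, 42.1 and 57.7 with control siRNA, again with no overlap. It was 2.00-fold higher with E2F1 siRNA (log2 1.00 ± 0.12, adjusted p = 1.36e-04) and 1.59-fold higher with E2F2 siRNA (0.67 ± 0.12, adjusted p = 7.95e-04).

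CHRNA2 was scarce with vehicle, at 2.49, 1.77 and 1.85 CPM with E2F1 siRNA (78 counts), 1.48, 1.32 and 1.98 with E2F2 siRNA (53 counts) and 0.767, 1.38 and 1.27 with control siRNA (49 counts). Its E2F1 siRNA difference was log2 0.83 ± 0.23 (adjusted p = 0.0448). ELL2 read 44.8, 49.7 and 35.3 CPM with E2F1 siRNA, 50.4, 49.5 and 41.5 with E2F2 siRNA, and 34.9, 33.3 and 26.0 with control siRNA. Every E2F siRNA library exceeded every control library, at log2 0.59 ± 0.13 with E2F2 siRNA (adjusted p = 0.00389) and 0.46 ± 0.13 with E2F1 siRNA (adjusted p = 0.0593, and 0.00124 with the replicate block). NDRG1 read 110, 87.4 and 127 CPM with E2F1 siRNA, 132, 129 and 182 with E2F2 siRNA, and 97.8, 87.9 and 119 with control siRNA, with replicate 3 the highest of each group. It was higher with E2F2 siRNA (log2 0.54 ± 0.17, adjusted p = 0.0306), and its E2F1 siRNA value was 0.09 ± 0.17 (adjusted p = 0.890).

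FKBP5 and PMEPA1, which were higher with E2F1 siRNA under R1881, gave no call with vehicle. FKBP5 read 66.1, 64.7 and 63.3 CPM with E2F1 siRNA, 52.2, 51.6 and 52.5 with E2F2 siRNA, and 57.0, 60.6 and 48.0 with control siRNA, a log2 difference of 0.23 ± 0.12 (adjusted p = 0.409) for E2F1 siRNA and -0.08 ± 0.12 (adjusted p = 0.659) for E2F2 siRNA. Its 3 libraries with E2F1 siRNA lay above those of control, which spread more widely. PMEPA1 averaged 52.6 ± 3.09 CPM with E2F1 siRNA, 46.0 ± 3.48 with E2F2 siRNA and 47.8 ± 7.45 with control siRNA (SD, n = 3). TRPM8 ran from 1.31 to 1.90 CPM with E2F1 siRNA, 1.13 to 1.64 with E2F2 siRNA and 0.867 to 2.35 with control siRNA. Both genes overlapped among all 3 pools.

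**Figure D4:**
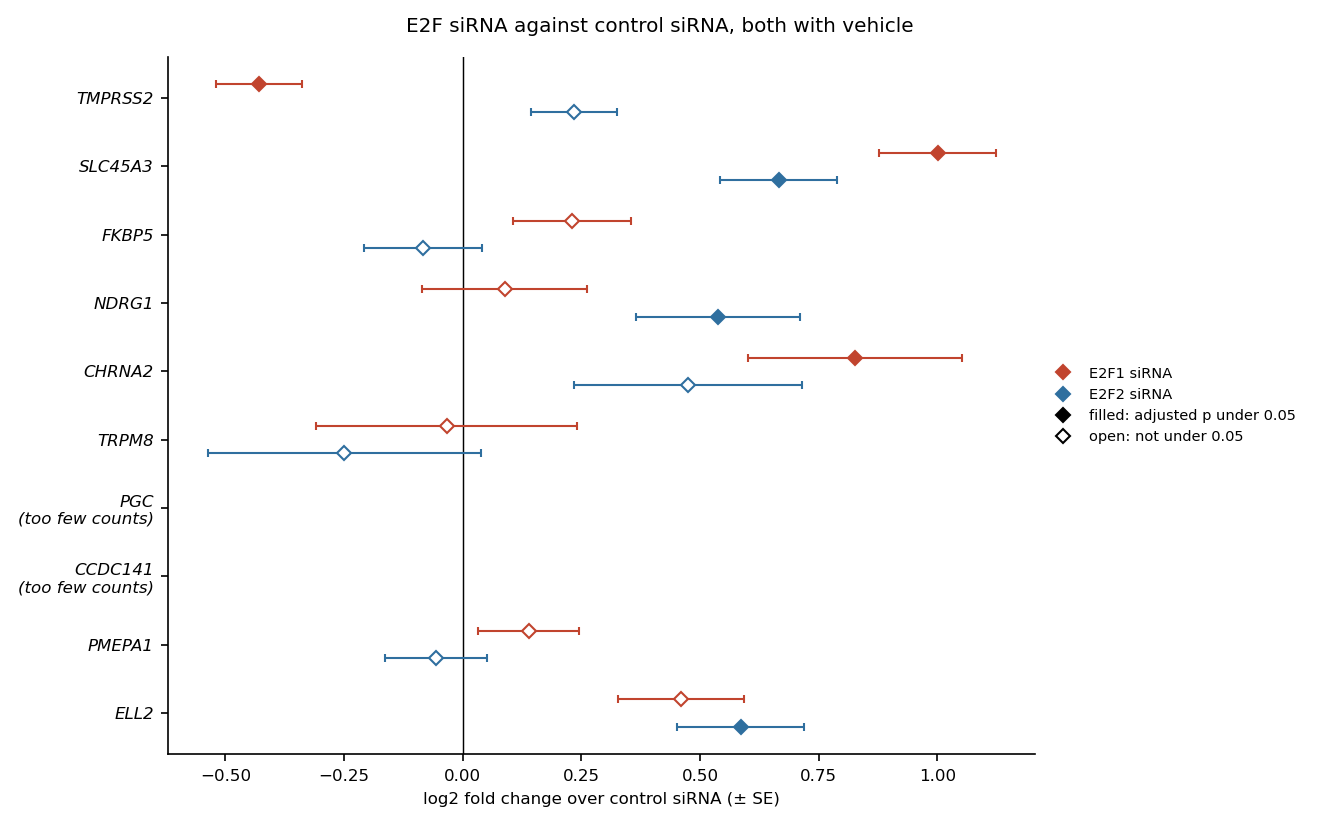
Log2 fold change of E2F1 siRNA and E2F2 siRNA over control siRNA, all with vehicle, as fitted values ± SE (n = 3 per group), filled where the adjusted p was under 0.05. PGC and CCDC141 are left blank because their groups held 2 to 6 counts. SLC45A3 lies to the right with both pools (1.00 and 0.67), and TMPRSS2 lies to the left with E2F1 siRNA (-0.43) and to the right with E2F2 siRNA (0.23).

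Several of these calls rested on few libraries. TMPRSS2 lost its E2F1 siRNA call without replicate 2 of E2F1 siRNA with vehicle (adjusted p = 0.0562). CHRNA2 lost its call without any single library of control siRNA or E2F1 siRNA with vehicle other than replicate 2 of control siRNA (adjusted p 0.0615 to 0.299), and also with no filter, DESeq2 or limma-voom (adjusted p 0.0626 to 0.126). NDRG1 lost its E2F2 siRNA call without replicate 1 or 2 of control siRNA or replicate 3 of E2F2 siRNA with vehicle (adjusted p 0.0760 to 0.148). In the other direction, ELL2 passed for E2F1 siRNA without replicate 3 of E2F1 siRNA with vehicle (adjusted p = 0.0164), and TMPRSS2 passed for E2F2 siRNA without replicate 3 of control siRNA with vehicle (adjusted p = 0.0407). With the 6 libraries compared fitted alone, none of the 10 genes was called for E2F1 siRNA and SLC45A3 alone was called for E2F2 siRNA. For E2F1 siRNA that fit called very few genes of the whole table, as given below with the other androgen-induced genes. Its share of all genes for E2F2 siRNA is not given, so nothing about the 10 genes is read from these losses.

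The difference in R1881 response, the R1881 response with an E2F pool minus that with control siRNA on the log2 scale, was called for 1 of the 10 genes with E2F1 siRNA and for none with E2F2 siRNA by edgeR (2 at an unadjusted p under 0.05, 0 by limma-voom, and 1, FKBP5, by DESeq2). Over all genes, 0.375% were called with a larger response and 0.310% with a smaller response under E2F1 siRNA, and 0.560% and 0.329% under E2F2 siRNA. These differences compare R1881 responses, which entered the choice of the genes with each pool. The gene called was TMPRSS2, at 0.68 ± 0.13 with E2F1 siRNA (adjusted p = 0.0206), which is the 12.7-fold response with E2F1 siRNA against 7.90-fold with control siRNA. Its differences were 0.77, 0.80 and 0.49 in replicates 1, 2 and 3, and its 2 parts were the lower level with vehicle (-0.43) and the level with R1881 (0.25, not called). With E2F2 siRNA the TMPRSS2 difference was 0.15 ± 0.13 (adjusted p = 0.829).

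FKBP5 had nearly equal differences with both pools, 0.66 ± 0.17 with E2F1 siRNA (adjusted p = 0.0997) and 0.67 ± 0.17 with E2F2 siRNA (adjusted p = 0.102), and neither passed by edgeR, while both passed by DESeq2 (adjusted p = 0.0394 and 0.0380). In replicates 1, 2 and 3 they were 0.85, 0.89 and 0.23 with E2F1 siRNA and 0.93, 1.05 and -0.04 with E2F2 siRNA, so replicate 3 gave little or none. PMEPA1 stood at 0.52 ± 0.15 with E2F1 siRNA (adjusted p = 0.137), at 0.42, 0.57 and 0.56 in the 3 replicates, and at 0.17 ± 0.15 with E2F2 siRNA (adjusted p = 0.833). SLC45A3 was the gene with the lowest value with E2F2 siRNA, -0.48 ± 0.17 (adjusted p = 0.267), alike in the 3 replicates (-0.49, -0.45 and -0.53), and stood at -0.20 ± 0.17 with E2F1 siRNA (adjusted p = 0.846).

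For CHRNA2 the differences in response were -0.07 ± 0.25 with E2F1 siRNA and -0.06 ± 0.27 with E2F2 siRNA, beside higher levels with E2F1 siRNA under both treatments. NDRG1 (0.44 ± 0.24 and 0.16 ± 0.24), ELL2 (0.26 ± 0.19 and -0.15 ± 0.18) and TRPM8 (-0.21 ± 0.33 and 0.47 ± 0.34) gave adjusted p of 0.612 to 0.978 over both pools. For PGC and CCDC141 the difference rests on 2 to 6 vehicle counts and is not given.

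The TMPRSS2 call for E2F1 siRNA was lost without any one of 6 libraries, namely replicate 1 or 2 of control siRNA with R1881, replicate 1 of E2F1 siRNA with vehicle, and replicates 1, 2 and 3 of E2F1 siRNA with R1881 (log2 0.63 to 0.71, adjusted p 0.0515 to 0.0862). It was also lost with no filter on low counts (adjusted p = 0.0692) and in the fit to the 12 libraries compared (adjusted p = 0.117). The replicate numbers were taken to pair these libraries. With the number as a block, 1.98% of all genes had a larger response and 2.61% a smaller one. There 3 of the 10 genes were called with E2F1 siRNA, TMPRSS2, FKBP5 (0.65, adjusted p = 0.0248) and PMEPA1 (0.52, adjusted p = 0.0141). FKBP5 passed without replicate 3 of control siRNA with vehicle for both pools (adjusted p = 0.0369 for E2F1 siRNA and 0.0379 for E2F2 siRNA), and for E2F2 siRNA without replicate 3 of E2F2 siRNA with R1881 (0.81, adjusted p = 0.0174).

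The direct comparison of the E2F pools uses no control library. Its libraries count as used in the choice of the genes too, through the R1881 response of each pool, so it is not independent of that choice. With R1881, SLC45A3, PGC and PMEPA1 were higher with E2F1 siRNA than with E2F2 siRNA by edgeR, which called none of the 10 genes lower, where 11.0% of all genes were called higher and 13.1% lower. The log2 differences were 0.62 ± 0.12 for SLC45A3 (adjusted p = 0.00132), 0.88 ± 0.22 for PGC (adjusted p = 0.00777) and 0.55 ± 0.10 for PMEPA1 (adjusted p = 0.00114), and each was positive in 3 of 3 replicates. Of the others, TRPM8 stood lowest, at -0.47 ± 0.18 (adjusted p = 0.0753), and was called lower by DESeq2 (adjusted p = 0.00392), limma-voom (0.0228) and the fit to the libraries compared (0.00386). FKBP5 (0.31 ± 0.12, adjusted p = 0.0807) passed without replicate 1 of E2F2 siRNA with R1881 (adjusted p = 0.0410).

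With vehicle, TMPRSS2 was lower with E2F1 siRNA than with E2F2 siRNA (log2 -0.66 ± 0.09, adjusted p = 4.36e-05) and SLC45A3 was higher (0.34 ± 0.12, adjusted p = 0.0480), where 14.4% of all genes were called higher and 16.1% lower. The TMPRSS2 call was kept when any of the 6 libraries was left out. The SLC45A3 call was lost without any of the 3 libraries of E2F2 siRNA with vehicle or replicate 3 of E2F1 siRNA with vehicle (log2 0.21 to 0.35, adjusted p 0.0795 to 0.230). With the replicate block, where the numbers were taken to pair the libraries, 21.4% of all genes were called higher and 24.0% lower. Of the 10, 4 were called, adding FKBP5 as higher (0.31, adjusted p = 0.0366) and NDRG1 as lower (-0.45, adjusted p = 0.00654). NDRG1 also passed without replicate 3 of E2F1 siRNA with vehicle (-0.58, adjusted p = 0.0336).

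**Figure D5:**
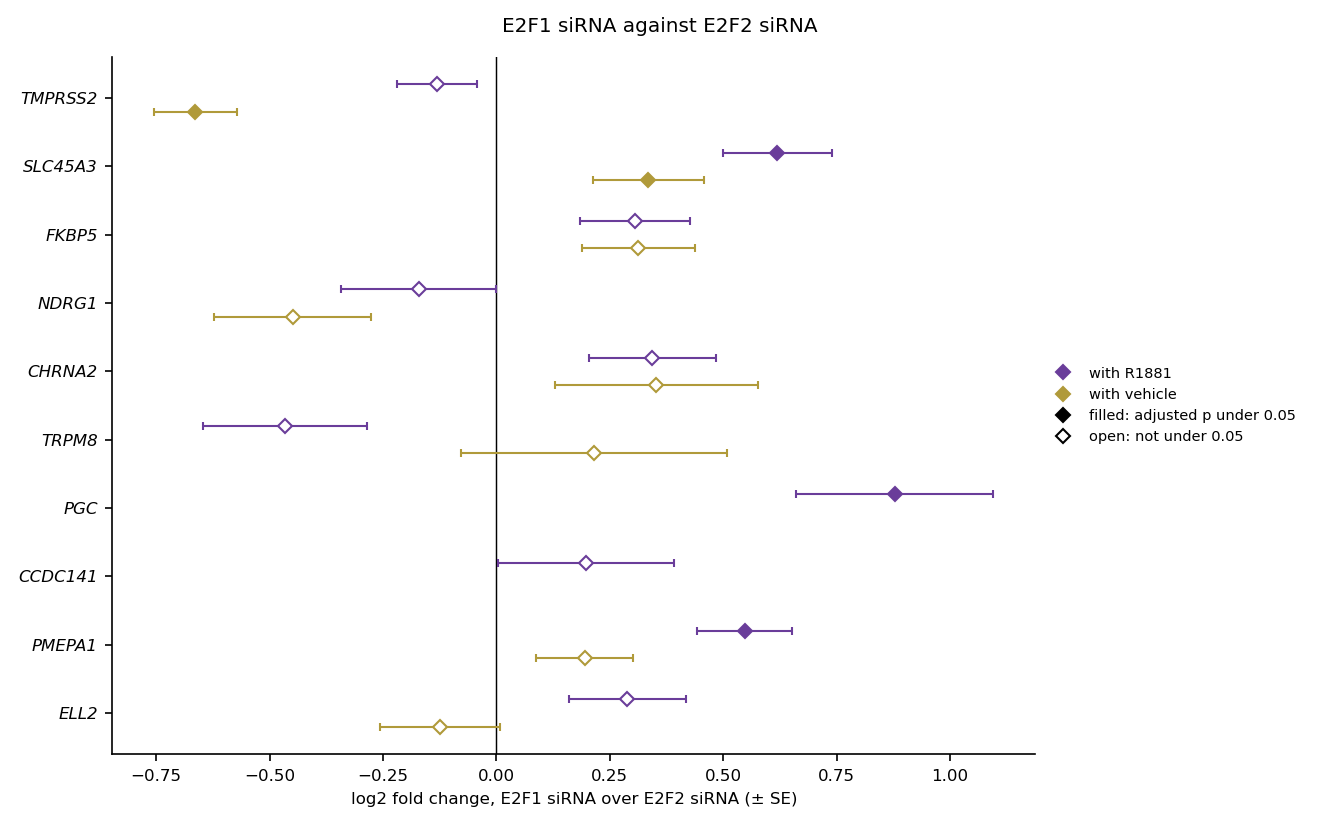
Log2 fold change of E2F1 siRNA over E2F2 siRNA for each gene, with R1881 and with vehicle, as fitted values ± SE (n = 3 per group), filled where the adjusted p was under 0.05. PGC and CCDC141 have no vehicle point because their groups held 2 to 6 counts. TMPRSS2 lies left of 0 with vehicle (-0.66), and SLC45A3 lies right of 0 with both treatments (0.62 and 0.34).

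Of 23 steroid receptors and receptor cofactors tested, none was called with E2F1 siRNA and R1881 by edgeR (the smallest adjusted p was 0.0517, for the coactivator NCOA2 at log2 0.22 ± 0.07), 1 was called higher by DESeq2 and 1 with the CPM filter, and 2 were lower with E2F1 siRNA and vehicle, the corepressor NCOR1 (-0.35 ± 0.07, adjusted p = 0.00638) and the homeobox factor HOXB13 (-0.50 ± 0.12, adjusted p = 0.0201). The fit to the libraries compared called none of them with E2F1 siRNA and vehicle. With E2F2 siRNA, 5 were higher and 7 lower with R1881, and 5 higher and 6 lower with vehicle (0 and 2 in the fit to the libraries compared). The shares of all genes called higher and lower were 4.42% and 4.92% with E2F1 siRNA and R1881, and 2.36% and 2.92% with vehicle. For E2F2 siRNA they were 15.9% and 14.4% with R1881, and 14.2% and 13.1% with vehicle. With the replicate block, E2F1 siRNA left 2 higher and 4 lower with R1881, and 1 higher and 3 lower with vehicle. For this and the following gene lists, the percentages of all genes are those of the main fit. Counts under other settings are not to be set against them. The histone demethylase KDM1A was lower with E2F2 siRNA than with control under R1881 and vehicle (-0.64 ± 0.07, adjusted p = 3.34e-06, and -0.67 ± 0.07, adjusted p = 2.39e-06), as was the pioneer factor FOXA1 (-0.38 ± 0.07, adjusted p = 3.84e-04, and -0.32 ± 0.07, adjusted p = 0.00191). NCOR1 went the other way with E2F2 siRNA and R1881, where it was higher than control (0.50 ± 0.07, adjusted p = 4.49e-05).

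Of 15 genes of the steroid receptor chaperone complex, in which FKBP5 acts, 1 was lower with E2F1 siRNA and R1881, and 7 were lower with E2F2 siRNA under each treatment, with none higher in any of these comparisons with control by edgeR. Over all genes, 4.92% were called lower with E2F1 siRNA and R1881, and 14.4% and 13.1% with E2F2 siRNA under R1881 and vehicle. In the fit to the libraries compared, the count with E2F2 siRNA was 11 lower with R1881 and 1 lower with vehicle. With the replicate block, 2 were lower with E2F1 siRNA and R1881, 1 was higher and 1 lower with E2F1 siRNA and vehicle, and 1 was higher and 11 lower with E2F2 siRNA and vehicle. The median log2 difference of the 15 with R1881 was -0.10 with E2F1 siRNA and -0.33 with E2F2 siRNA, beside -0.01 and 0.03 over all genes. FKBP4, a co-chaperone that replaces FKBP5 in steroid receptor complexes when hormone binds, was the gene lower with E2F1 siRNA and R1881, and also belongs to the paralogues of FKBP5 (-0.38 ± 0.08, adjusted p = 0.00545), where FKBP5 was higher. BAG1 and HSP90AB1, a nucleotide exchange factor and a heat shock protein 90, were lower with E2F2 siRNA and R1881 (-0.46 ± 0.08, adjusted p = 4.86e-04, and -0.30 ± 0.05, adjusted p = 4.96e-04).

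Of 12 genes of the super elongation complex and its regulators besides ELL2, AFF1, a scaffold of the complex, was higher in all 4 comparisons with control, at log2 0.41 ± 0.08 with E2F1 siRNA and R1881, 0.68 ± 0.08 with E2F2 siRNA and R1881, 0.38 ± 0.08 with E2F1 siRNA and vehicle, and 0.73 ± 0.08 with E2F2 siRNA and vehicle (adjusted p = 0.00355, 9.90e-06, 0.00957 and 5.29e-06). No other gene of the 12 was called with E2F1 siRNA by edgeR in all 18 libraries. The fit to the libraries compared called 3 higher with E2F1 siRNA and R1881 and none with E2F1 siRNA and vehicle, so that the AFF1 call was lost there, and DESeq2 called 1 higher and 1 lower with vehicle. The replicate block gave 2 higher with R1881, and 1 higher and 2 lower with vehicle. With E2F2 siRNA, 2 were higher and 1 lower with R1881, and 1 higher and 2 lower with vehicle (3 and 5 with the replicate block). These E2F2 counts by edgeR are near the share of all genes, 15.9% higher and 14.4% lower with R1881, and 14.2% and 13.1% with vehicle. For E2F1 siRNA that share was 4.42% and 4.92% with R1881, and 2.36% and 2.92% with vehicle. ELL3, a paralogue of ELL2, was lower with E2F2 siRNA under both treatments (-0.62 ± 0.21, adjusted p = 0.0327, and -0.84 ± 0.22, adjusted p = 0.00933).

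NDRG1 is also known as a hypoxia target, and 13 other hypoxia targets were tested. With E2F2 siRNA, 4 were higher with R1881 and 6 with vehicle, with none lower, where 15.9% and 14.2% of all genes were called higher, including the prolyl hydroxylase EGLN3 (0.66 ± 0.13, adjusted p = 0.00146, and 1.39 ± 0.13, adjusted p = 1.28e-06), and NDRG1 was higher in both comparisons too. With E2F1 siRNA, ANKRD37 was higher and EGLN3 lower with R1881 (1.48 ± 0.14, adjusted p = 1.03e-05, and -0.74 ± 0.14, adjusted p = 0.00266), and none was called with vehicle (2 lower with the replicate block). The ANKRD37 response to R1881 was larger with E2F1 siRNA than with control siRNA (log2 1.51 ± 0.22, adjusted p = 0.00469). Of 27 paralogues of the 10 genes tested, 2 were higher and 1 lower with E2F1 siRNA and R1881 (6 and 2 with the replicate block). The share of all genes there was 4.42% higher and 4.92% lower. With E2F2 siRNA and R1881, 6 paralogues were higher and 2 lower, beside 15.9% and 14.4% of all genes. NDRG3, a paralogue of NDRG1, was higher in both (0.26 ± 0.07, adjusted p = 0.0259, and 0.26 ± 0.07, adjusted p = 0.00812).

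Of 40 other androgen-induced genes, 14 were higher and none lower with E2F1 siRNA and R1881, and 19 were higher and 1 lower with E2F2 siRNA and R1881. Over all genes, 4.42% were called higher and 4.92% lower with E2F1 siRNA, and 15.9% and 14.4% with E2F2 siRNA. With vehicle, 6 were higher and none lower with E2F1 siRNA, and 14 higher and 4 lower with E2F2 siRNA. The shares of all genes there were 2.36% higher and 2.92% lower with E2F1 siRNA, and 14.2% and 13.1% with E2F2 siRNA. The fit to the libraries compared called 24 higher with E2F1 siRNA and R1881, none with E2F1 siRNA and vehicle, where it called 7 genes higher and 6 lower in all, and 6 higher and 1 lower with E2F2 siRNA and vehicle. With the replicate block, E2F1 siRNA left 30 higher and 1 lower with R1881, and 18 higher and 1 lower with vehicle. The percentages given here are those of the main fit. With R1881 the block also called a larger share of all genes, as given above, so its counts are not to be set against them. The median log2 difference of the 40 with R1881 was 0.42 with E2F1 siRNA and 0.40 with E2F2 siRNA, beside -0.01 and 0.03 over all genes. The smallest p with E2F1 siRNA and R1881 belonged to SAT1, the polyamine acetyltransferase (0.81 ± 0.09, adjusted p = 2.48e-05), and SORD, sorbitol dehydrogenase (0.57 ± 0.07, adjusted p = 1.00e-04), and with E2F2 siRNA and R1881 to PTPN21, a tyrosine phosphatase (1.05 ± 0.12, adjusted p = 7.795e-06), and MERTK, a receptor tyrosine kinase (1.11 ± 0.13, adjusted p = 8.75e-06). The difference in response was called for none of the 40 with E2F1 siRNA by edgeR (1 by DESeq2, and 4 larger and 1 smaller with the replicate block).

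The non-member genes with the most similar pattern were sought over the 5 fitted log2 differences from control siRNA with vehicle, among 11921 named genes, by the root-mean-square difference. ELL2 was nearest to ACSL3, a fatty acyl-CoA ligase (0.17), NDRG1 to RHOU, a small GTPase (0.17), and PMEPA1 to EAF2 (0.17), which binds ELL proteins. SLC45A3 was nearest to CSGALNACT1 (0.22), FKBP5 to WWTR1 (0.32), TMPRSS2 to SGK223 (0.35) and TRPM8 to TBX15 (0.44). PGC (0.41) and CHRNA2 (0.72) were nearest to the kallikrein KLK2. CCDC141 was nearest to the glucose transporter SLC2A3 at 1.07, which held 0 counts in every vehicle library. PGC and CCDC141 held 4 counts each over the control siRNA libraries with vehicle, from which all differences are taken. Their distances therefore rest on very few reads, and no likeness or lack of it is read from them.

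TTN, which encodes titin, was the next nearest gene to both CHRNA2 and CCDC141. It lies beside CCDC141 on the same strand, and the annotations of the pair share 138 exon bases, so counts there cannot be assigned to either. TTN held 604 counts over the 18 libraries, 21.1% of those of CCDC141. It read 8.21, 6.21 and 5.28 CPM with E2F1 siRNA and R1881, 6.42, 6.77 and 7.66 with E2F2 siRNA and R1881, and 2.40, 2.14 and 3.11 with control siRNA and R1881. It was higher than control with both pools (log2 1.37 ± 0.28, adjusted p = 0.00484, and 1.45 ± 0.28, adjusted p = 9.12e-04), where CCDC141 was called with neither in the main fit. With E2F1 siRNA, CCDC141 was called higher by DESeq2, in the fit to the libraries compared and with the replicate block, so this contrast depends on the setting. With vehicle TTN held 1, 3 and 2 counts over the E2F1, E2F2 and control siRNA libraries.

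PMEPA1 overlaps the antisense RNA gene NKILA over 343 exon bases, and the strand setting of the counting is not given in the sources used here, so reads of the pair may be mixed. NKILA held 2404 counts over all libraries, 5.61% of those of PMEPA1. With R1881 it was higher with E2F1 siRNA (18.3 ± 2.68 CPM, SD, n = 3) than with control siRNA (12.1 ± 0.468), at log2 0.59 ± 0.14 (adjusted p = 0.0113), and stood at 0.29 ± 0.14 with E2F2 siRNA (adjusted p = 0.123), while PMEPA1 stood at 0.66 and 0.11. The antisense genes that overlap TRPM8 and ELL2 held 0.0187% and 0.0652% of the counts of their partners.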

How the data were processed

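The authors deposited counts of reads per gene, made with featureCounts per the submitters' processing notes, which also name CASAVA 1.8.2, TopHat2 2.0.13, Picard 1.97, Subread 1.6.4 and GRCh38. An exon capture kit was used per the labels' protocols. The annotation release, strand setting and handling of multiply mapped reads are not given in the sources used here. All values were whole numbers, and no column belonged to another series.

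Low genes were dropped with filterByExpr (count of 10, total of 15), and the rest were scaled by TMM and fitted with edgeR 4.0.16 (R 4.3.3) in 1 model of 6 group means over 18 libraries. The quasi-likelihood F test gave p-values, adjusted by Benjamini-Hochberg over 15185 genes and called under 0.05. An SE is the log2 fold change divided by the square root of F. Levels are TMM-scaled CPM, mean ± SD, and log2 differences between single libraries use a prior count of 2. P-values set a group difference against the spread between these libraries within groups, estimated over the 6 groups together. The main fit leaves out the replicate number. Intervals are exact 95% intervals of a ratio of counts.

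The 10 genes and the gene lists were chosen with earlier results of these data known. The genes were always named, with E2F1 and E2F2. A few genes that the rule would name are not reported here. From each other list up to 3 called genes with the smallest p were eligible, or 2 with their values if there was no call, and for each of the 10 genes the 2 most similar genes. TTN and NKILA were named for overlap. Positions are from GENCODE 29, which held 53688 of the 58037 identifiers with their version and all 10 genes (CCDC141 with another version). Promoters are from RefSeq.

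Alternatives were RLE scaling, no filter, a CPM filter (1 or more in 3 libraries), limma-voom (limma 3.58.1), DESeq2 1.42.0, only the libraries compared, replicates 1 and 2 only, each library left out, and the replicate number as a block. The labels share replicate numbers across groups without saying what they mean. Deviations from the group mean correlated between libraries of the same number at r over 0.1 in every pair for E2F1 siRNA against control (0.13 to 0.41 with R1881, 0.37 to 0.80 with vehicle), E2F2 siRNA against control with vehicle (0.27 to 0.61), E2F1 against E2F2 siRNA with vehicle (0.13 to 0.57) and the E2F1 difference in response (0.13 to 0.80), so the numbers were taken to pair those libraries. The procedure was checked on simulated counts.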

Additional observations from a re-analysis of the deposited data

Results flagged for a closer look

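The R1881 response of TMPRSS2 differed between E2F1 siRNA and control siRNA by 0.68 ± 0.13 on the log2 scale, by a test of the difference itself (edgeR, adjusted p = 0.0206), and was larger in 3 of 3 replicates. By edgeR it was the single gene of the 10 with such a call for either E2F pool, while DESeq2 also called FKBP5 for both pools (adjusted p = 0.0394 and 0.0380). The TMPRSS2 call was lost without any one of several libraries, with no filter on low counts (edgeR, adjusted p = 0.0692) and in the fit to the libraries compared (0.117). The R1881 responses that the test compares entered the choice of the genes.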

How the results depend on the processing

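Counts here are genes called out of 10, higher and lower together. The share of all genes called differed between settings too, so a change in these counts is not a result about the 10 genes. The shares in the main fit are those given with each comparison above. E2F1 siRNA against control with R1881 gave 5, and 8 in the fit to the libraries compared. It gave 9 under the replicate block, all higher, and 9 in replicates 1 and 2 only, 8 higher and TRPM8 lower, without PGC. E2F2 siRNA against control with R1881 gave 5, and 3 with no filter and 8 with replicates 1 and 2 only. With vehicle, E2F1 siRNA against control gave 3, and 0 with only the libraries compared and 5 with replicates 1 and 2 only, and E2F2 siRNA against control gave 3, and 1 and 5 under the same settings. With replicates 1 and 2 only, the lower gene was TMPRSS2 for E2F1 siRNA and FKBP5 for E2F2 siRNA. The difference in response gave 1 for E2F1 siRNA, and 0 with no filter or with only the libraries compared, 2 with DESeq2, 4 in replicates 1 and 2 only, and 3 under the replicate block. For E2F2 siRNA it gave 0 (2 genes at an unadjusted p under 0.05, FKBP5 and SLC45A3), and 1 with DESeq2 (FKBP5), 4 in replicates 1 and 2 only (SLC45A3 lower, the others higher), and 2 under the replicate block (FKBP5 higher, SLC45A3 lower). E2F1 against E2F2 siRNA with R1881 gave 3, and 5 with limma-voom, 6 with only the libraries compared, 9 in replicates 1 and 2 only, and 7 under the replicate block. TRPM8 was called lower in each of these alternatives, and with replicates 1 and 2 only so were TMPRSS2 and NDRG1. With vehicle, E2F1 against E2F2 siRNA gave 2, and 1 with the CPM filter or limma-voom, 5 in replicates 1 and 2 only, and 4 under the replicate block. TMPRSS2 was lower in each, as was NDRG1 in replicates 1 and 2 only and under the block.

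Leaving out each library in turn gave 5 to 7 and 3 to 4 calls for E2F1 and E2F2 siRNA against control with R1881, 1 to 3 and 2 to 4 with vehicle, 0 to 2 and 0 to 1 for the differences in response, and 3 to 4 and 1 to 2 for E2F1 against E2F2 siRNA with R1881 and with vehicle. No called log2 difference of the 10 genes changed sign under any of these settings. RLE scaling changed none of the 8 counts. For E2F1 siRNA against control with R1881, DESeq2 called 7 and limma-voom 6. The numbers were not taken to pair the libraries for E2F2 siRNA against control with R1881 (lowest r = 0.082), the E2F2 difference in response (0.082) or E2F1 against E2F2 siRNA with R1881 (0.091). Counts of calls in the other gene lists stayed within 1.5 times in 591 recomputed values and moved further in 153. Among the 40 other androgen-induced genes, calls for E2F1 siRNA with R1881 stood at 14, and at 24 with only the libraries compared, while with vehicle that fit gave 0 for E2F1 siRNA, in place of 6, and 7 for E2F2 siRNA, in place of 18. The cause of these changes was not tested. Depth limits PGC and CCDC141, which held 2 to 6 counts per vehicle group.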
